A study of Mus musculus with 30 samples.

Results

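Gene expression in the cerebellum of SCA7 KI mice was compared with that of wild-type mice at P10, postnatal day 10, in 10 of the 30 mice of the series. The members were chosen by their labels alone, 5 mice titled SCA7 KI (KI 3, 4, 6, 8 and 9 by mouse number) and 5 titled wild-type (WT 1, 2, 5, 7 and 10). All were labelled female, were killed by decapitation and received no treatment. The labels give neither the repeat length of the knock-in allele, nor whether it was carried in 1 or 2 copies, nor the strain background, litter or the day of RNA extraction. Whole cerebellum of each mouse was read on 1 array in Cy5, against a Cy3 pool of the P10 RNA of both genotypes, and no dye was swapped. Values are log2 ratios of mouse to pool after background correction and loess, unless another scale is named, and differences are KI minus WT.

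Spinocerebellar ataxia 7 (SCA7) is an inherited ataxia with loss of vision, caused by an expanded CAG repeat in the gene for ataxin-7. Ataxin-7 is a subunit of SAGA, a large coactivator complex that acetylates and deubiquitinates histones at promoters. In the second postnatal week the mouse cerebellum is still being built: granule precursors divide in the outer layer under Sonic hedgehog from Purkinje cells, their daughters migrate inward, and myelination is under way.

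The Cy5 signal was well above background for 76.0% to 83.1% of the spots of an array and the Cy3 signal for 78.6% to 86.1%. Arrays were printed on slides, and the P10 mice lay on 3 of them, balanced for genotype: KI 3, KI 4, WT 1 and WT 2 on slide 1, KI 6, KI 8, WT 5 and WT 7 on slide 2, and KI 9 and WT 10 on slide 3. An F test of slide among the 10 P10 arrays, with genotype in the limma model, called 9029 of 34163 probes, or 26.4%.

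The libraries labelled KI 3, KI 4 and WT 1 stood apart from the other 7. Their Cy5 intensity for Gabra6, a GABA receptor subunit of mature granule neurons, was 682, 622 and 374, against 9369 to 31558 in the other mice. Calb1, the Purkinje cell calcium buffer calbindin, read 8988, 7362 and 4749 in these 3 libraries and 29325 to 59515 in the others. Neurod1, a transcription factor of granule neurons, read 1885, 2757 and 1724 against 21276 to 40513. The defining markers of Purkinje and granule cells were well above background on all 10 arrays, but at much lower levels in these 3. Signal above background shows that such cells were present, not how much of each sample was cerebellar cortex, and tissue content was not tested. The first principal component took 58.4% of the variance over 31862 probes and set them at -51.5, -63.5 and -60.0, with the others between -11.3 and 56.4. Because 2 of the 3 were KI, values of cell type lists and their defining markers in the cortex are given with and without them. Leaving them out without a block leaves WT 2 as the one slide 1 mouse, so list medians within slides are given as well; slides 2 and 3 hold none of the 3. In bulk tissue, fewer cells of a type and less RNA per cell cannot be told apart.

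The library labelled KI 6 went against its sex label. Its Cy5 intensity for Xist, the RNA that silences the inactive X chromosome, was 77.0, against 1445 to 6015 in the other 9 P10 mice. For the Y-linked genes Ddx3y and Eif2s3y it read 2783 and 3263, where the other 9 lay between 46.3 and 60.2. None of the 20 mice of the other ages had both Y-linked genes well above background. With slide as a block no probe was called without KI 6, so every blocked call below rests on this library. Values without KI 6 are given for some results only.

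**Figure D1:**
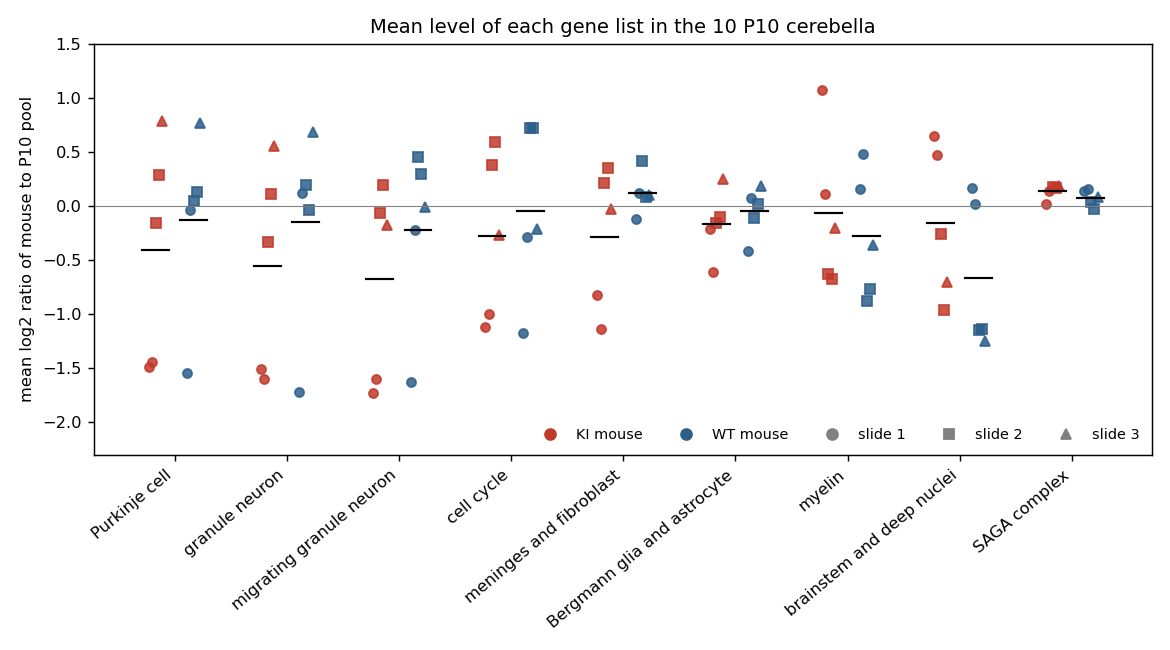
Mean log2 ratio of mouse to P10 pool over the members of 9 gene lists that were usable on all 10 arrays. Each point is 1 mouse, coloured by genotype and shaped by slide, and black lines are group means; of the 3 slide 1 libraries with low Purkinje and granule levels, at -1.72 to -1.44, 2 are KI and 1 is WT.

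Atxn7, the targeted gene, was read by 1 probe at chr14:11922707-11922766 (build mm7, plus strand). Its first 30 of 60 bases are printed 5′ to 3′ with G and C in capitals, because the base composition of the probes enters the results on all genes.

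Atxn7: tataGCGCtGttGaGGaataGtaCaCtGaG

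The ratio of Atxn7 was -0.38 in KI 3, -0.56 in KI 4, -0.50 in KI 6, -0.52 in KI 8 and -0.40 in KI 9. It was -0.42 in WT 1, -0.22 in WT 2, 0.38 in WT 5, -0.71 in WT 7 and -0.07 in WT 10. The KI mice lay close together inside the wider range of the WT mice, so the groups overlapped. The difference was -0.26 ± 0.20 (SE of the fit, n = 5 mice in each group), with a 95% interval from -0.68 to 0.15. Here and below, the SE and interval rest on a variance pooled over the arrays of all ages, not on the mice compared here alone. A two-sided exact permutation test over the mice gave p = 0.206 (smallest possible 0.0079), and 0.278 with mice exchanged only within slides (smallest possible 0.0278). The limma adjusted p over all probes was 0.706. The KI mean was the lower one within each slide, by -0.15, -0.35 and -0.33, and single WT mice moved the difference either way: it was -0.12 without WT 5 (exact permutation p = 0.405) and -0.39 without WT 7, the one WT mouse below all KI mice (exact permutation p = 0.0238). WT 5 and WT 7 were the highest and the lowest WT mouse. The p values without them follow from that choice and do not stand as tests of the difference. The files do not say whether the probe reads the mutant and the normal allele alike.

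Of the 30 genes listed beside Atxn7 on chromosome 14, 15 on each side in the RefSeq order, 7 had a tested probe and none was called. Psmd6, a subunit of the proteasome lid and a close neighbour, had the only unadjusted p under 0.05. Its ratios ran from -0.73 to -0.40 in the KI mice and from -0.70 to -0.05 in the WT mice, which overlapped. The difference was -0.25 ± 0.10 (limma adjusted p = 0.579, and 0.0944 with slide as a block).

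The SAGA subunits, Atxn7 included, were spread on both sides of 0. Of 21 measured members, 10 were higher and 11 lower in KI, with a median of -0.03 beside 0.02 over all 19954 genes tested. Without the 3 libraries it was 0.08. Taken relative to the median of all genes it was -0.05, and turned to 0.07 with median centring and to 0.0026 with the Cy5 channel alone; turns named below for other lists are of this relative median. No member was called. Taf6l, a structural subunit of the SAGA core, had the smallest p of the list. It read 0.51 in KI 3, 0.88 in KI 4, 0.88 in KI 6, 0.83 in KI 8 and 0.87 in KI 9, against 0.91 in WT 1, 0.44 in WT 2, -0.11 in WT 5, 0.21 in WT 7 and 0.12 in WT 10. The KI mice were uniformly high apart from KI 3, and WT 1 matched them. The difference was 0.48 ± 0.15 (limma adjusted p = 0.576), and 0.02 within slide 1 against 0.81 and 0.74 within slides 2 and 3. Kat2a, the acetyltransferase of the complex, differed by 0.41 ± 0.20 (adjusted p = 0.603), and by -0.04, 0.61 and 0.92 within slides 1, 2 and 3.

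Across all probes, no difference between KI and WT passed an adjusted p of 0.05 in the limma fit over all 30 arrays (0 of 34832 probes, 0%), and the smallest adjusted p was 0.576. At an unadjusted p under 0.05 there were 2898 probes, 8.32% of those tested. The 95% interval lay within 1 log2 unit of 0, a 2-fold change either way, for 33217 probes (95.4%). The median width of the interval was 0.59.

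With slide as a block in the same model, the design that compares mice of the same slide, 605 probes passed (1.74%), 298 higher and 307 lower in KI. They held 400 genes by the brightest probe, 196 higher (0.982%) and 204 lower (1.02%). The count depended on single mice: it was 0 without KI 6, the library with Y-linked signal, 10 without WT 7, 16 without KI 8, 1657 without KI 3 and 2668 without WT 1. It was 52 without KI 9, 55 without WT 10, 80 without WT 5, 151 without WT 2 and 152 without KI 4. Without KI 3, KI 4 and WT 1 together it was 1645 with slide as a block and 0 without a block. In the 10 P10 arrays alone, with slide as a block, no probe passed (6055 probes at an unadjusted p under 0.05). With median centring in place of loess the blocked count was 1327, of which 88.0% were higher in KI instead of 49.3%.

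**Figure D2:**
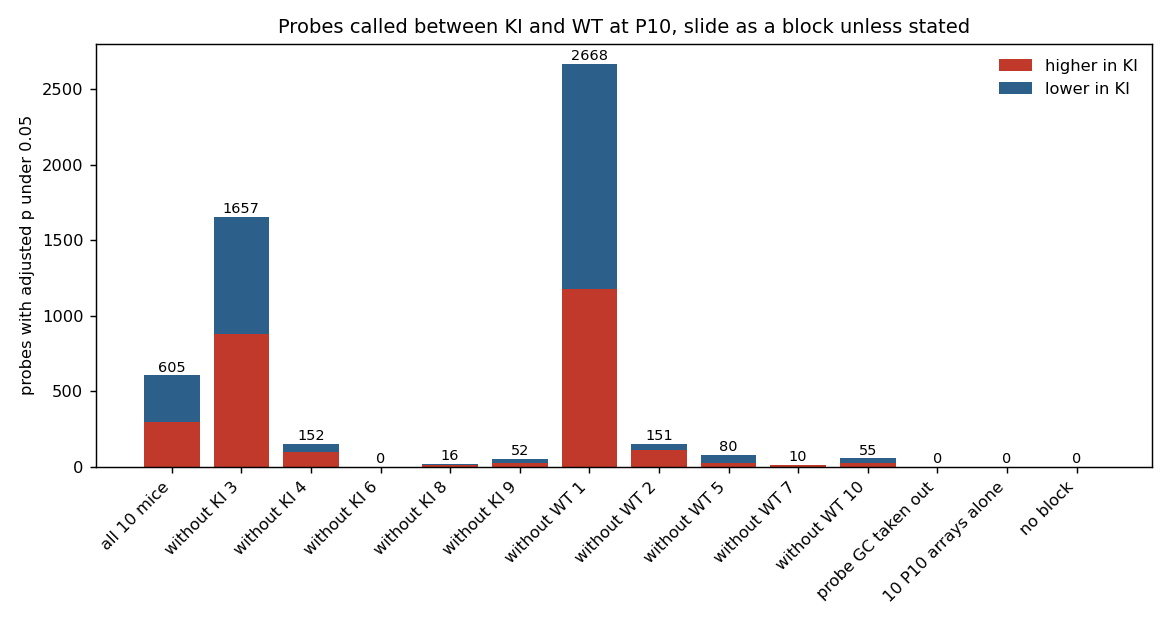
Number of probes with adjusted p under 0.05 between KI and WT at P10, stacked by direction. All bars but the last have slide as a block; the count was 605 with all 10 mice, 0 without KI 6 and 2668 without WT 1.

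The called probes differed in base composition by direction. Probes called higher in KI had a median GC content of 53.3% (quartiles 50% and 55%) and those called lower 35% (35% and 38.3%), beside 41.7% (36.7% and 45%) among probes not called. The same held for the whole array. The median difference was -0.13 over the 8021 probes with at most 35% GC and 0.14 over the 5264 probes with more than 50%, and it kept that order within slide 1 (-0.06 and 0.07), slide 2 (-0.24 and 0.24) and slide 3 (-0.05 and 0.12). By mouse, the slope of the log2 ratio for each 10 points of probe GC was 0.186 in KI 3, 0.301 in KI 4, 0.232 in KI 6, 0.261 in KI 8 and 0.224 in KI 9. The slope was 0.208 in WT 1, 0.160 in WT 2, 0.0034 in WT 5, -0.00053 in WT 7 and 0.138 in WT 10. WT 5 and WT 7, both on slide 2, had flat slopes, and the KI slopes overlapped those of WT 1. When a smooth trend on probe GC was taken out of each array, chosen after seeing the data, no probe passed with slide as a block (smallest adjusted p 0.0633, 4757 probes at an unadjusted p under 0.05).

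**Figure D3:**
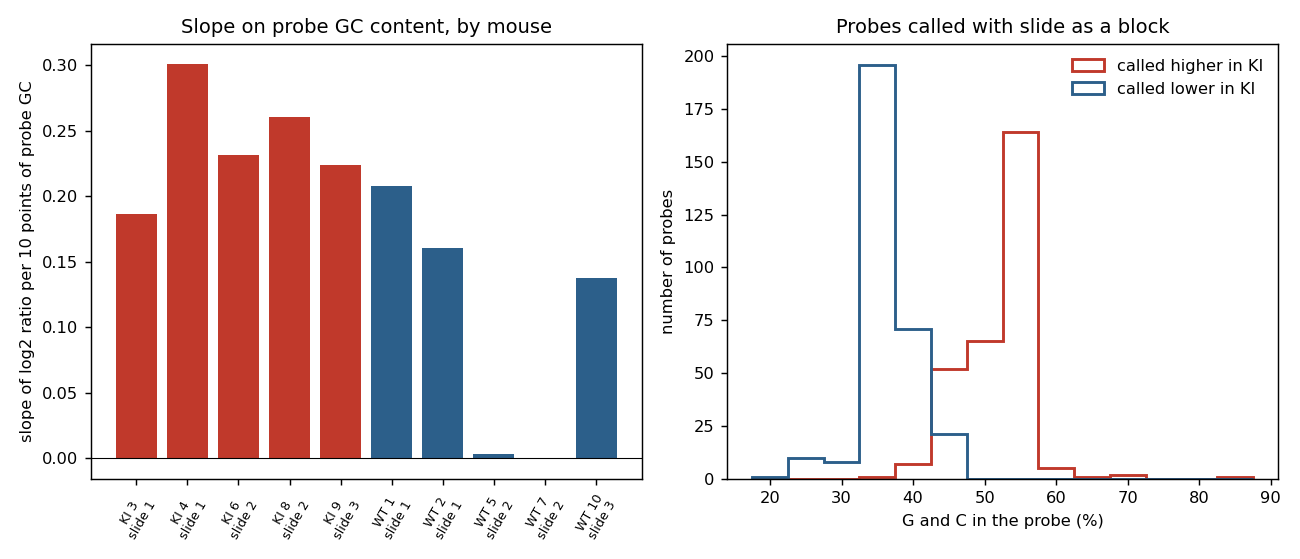
Left, slope of the log2 ratio on probe GC content in each P10 mouse, red for KI and blue for WT, from -0.00053 in WT 7 to 0.301 in KI 4. Right, histogram of the GC content of the 298 probes called higher and the 307 called lower in KI with slide as a block, with medians of 53.3% and 35%.

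The probes of 6 genes called in the blocked fit, chosen after their values were seen, show this composition. The first 30 bases of each are printed 5′ to 3′ with G and C in capitals, the first 3 for genes higher and the last 3 for genes lower in KI.
Fsd1: GttCaCaGCtGaGtCttaCaCGGtGCtGGG
Ndufa11: GGCCGaGCaaGCCCaGCtaGGtatGGCGat
Gal: tGttGatGtGCCCCtGCCtGaGaGCaaCat
Nae1: CCaGttGtaGaataaGCaCCatGtGtaata
Phf6: tCttaGtaCaCaCGaCtCaaGataCtaaCa
Tdrkh: aGaGGaGCCtattaaCCatatGaaaGaCaG
Over the full 60 bases the GC content of these probes was 55%, 53.3% and 46.7% for Fsd1, Ndufa11 and Gal, and 35%, 36.7% and 35% for Nae1, Phf6 and Tdrkh. The probes of Ndufa11 and Gal lie at chr17:54928975-54929034 (plus strand) and chr19:3305949-3306008 (minus strand), and that of Nae1 at chr8:103110411-103110470 (minus strand), all in mm7.

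Ndufa11, an accessory subunit of respiratory complex I, read 0.83 in KI 3, 0.87 in KI 4, 0.51 in KI 6, 0.40 in KI 8 and 0.55 in KI 9. In the wild type it read 0.49 in WT 1, 0.41 in WT 2, -0.40 in WT 5, -0.02 in WT 7 and 0.11 in WT 10. Only KI 8 lay inside the WT range. The difference was 0.51 ± 0.13 without a block (limma adjusted p = 0.576) and 0.51 ± 0.08 with slide as a block (adjusted p = 0.0138, and 0.0029 to 0.089 leaving out 1 mouse at a time). Both of its probes were called with the block. With probe GC taken out the blocked difference was 0.37 (adjusted p = 0.0633).

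Nae1, a subunit of the enzyme that activates the ubiquitin-like modifier NEDD8, read -1.11 in KI 3, -1.28 in KI 4, -0.42 in KI 6, -0.36 in KI 8 and -0.24 in KI 9. It read -0.49 in WT 2, 0.31 in WT 5, 0.32 in WT 7 and 0.05 in WT 10, and its spot on WT 1 was an outlier and not used. KI 3 and KI 4 were low, and the other KI mice lay between WT 2 and the rest. The difference was -0.73 ± 0.21 without a block (adjusted p = 0.576), -0.61 ± 0.09 with it (adjusted p = 0.0138), and -0.39 without the 3 libraries and no block.

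By the fixed rule, the 10 genes of smallest p in each direction were also named. Higher in KI were 7530403E16Rik, Snapc2, Mon1a, Vps11, Ndufa11, Dbh, Ints9, 1110014N23Rik, Dhrsx and Oprm1, with differences of 0.33 to 1.26. Lower in KI were Cnep1r1, Poc1b, Tanc2, Rev1, Yy1, Bpnt1, Mdm2, Med30, Nae1 and Mtfmt, with differences of -0.90 to -0.26. All 20 had an adjusted p of 0.576 without a block. Another probe of the gene gave the opposite direction for 1110014N23Rik, Oprm1, Poc1b, Tanc2, Yy1 and Mdm2. With slide as a block, Ints9 (adjusted p = 0.058) and Dhrsx (0.052) missed the threshold and the other 18 passed.

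In 5 of these 20 genes, chosen after their values were seen, the 5 KI mice did not overlap the 5 WT mice. Among the 17927 genes usable on all 10 arrays, all KI mice lay above all WT mice in 151 (0.842%) and below in 98 (0.547%). Oprm1, the mu opioid receptor, ran from 0.13 to 0.48 in KI and from -0.16 to 0.04 in WT, a difference of 0.34 ± 0.09; of its 3 probes, 1 gave the opposite direction. Mon1a, which acts in vesicle trafficking to late endosomes, ran from 0.47 to 0.61 in KI and from -0.03 to 0.43 in WT. Dhrsx and 1110014N23Rik were likewise higher in every KI mouse, though the other probe of 1110014N23Rik gave -0.17. Bpnt1, a phosphatase of bisphosphate nucleotides, was the one that lay lower, from -0.61 to -0.49 in KI and from -0.44 to -0.10 in WT, a difference of -0.26 ± 0.07, and both of its probes gave that direction. Mdm2, the ubiquitin ligase of p53, read -0.76 to -0.47 in KI and -0.48 to -0.14 in WT, a difference of -0.35 ± 0.10, while its other probe gave 0.10. Yy1, a zinc-finger transcription factor, differed by -0.55 ± 0.15 on 4 usable mice a group, and 1 of its 3 probes gave 0.18.

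**Figure D4:**
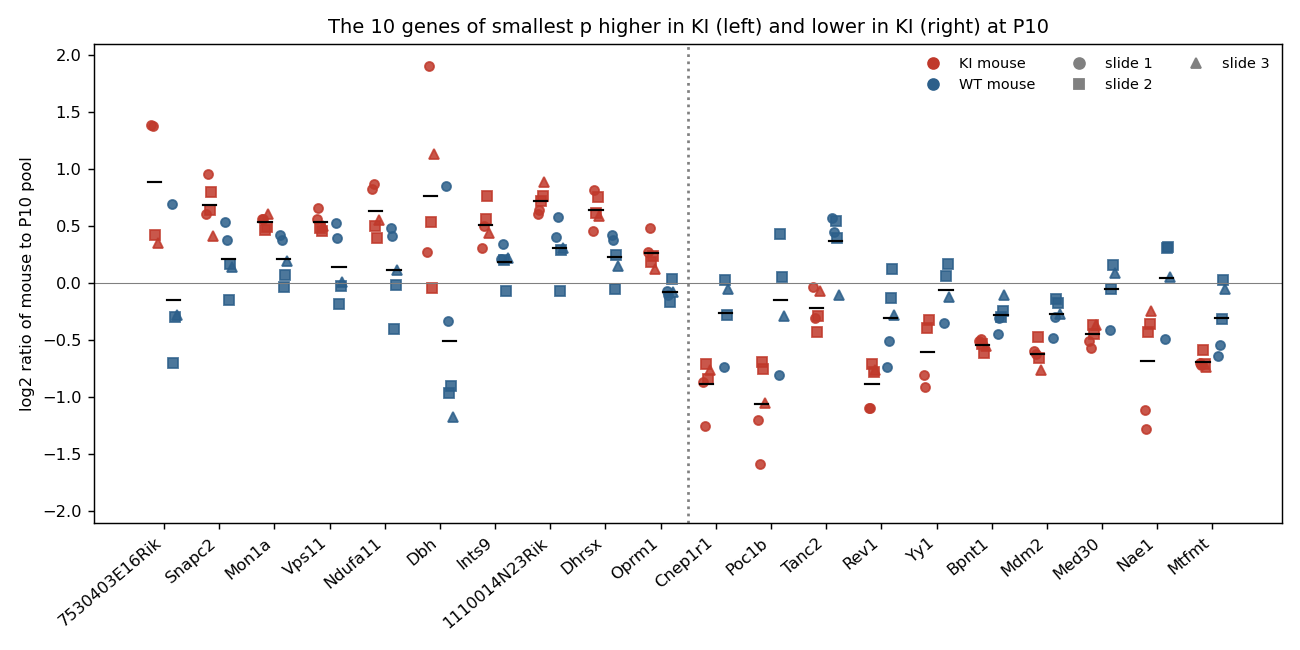
Log2 ratio of mouse to P10 pool for the 10 genes of smallest p that were higher in KI (left of the dotted line) and the 10 that were lower (right). Points are mice, shaped by slide, and black lines are group means; none of the 20 passed without a block (adjusted p 0.576), and the WT mice of slide 1 often lie nearest to KI.

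Genes of brainstem and deep nuclei, a list fixed here as a measure of tissue next to the cortex, were higher in KI in all 13 measured members, with a median of 0.42 beside 0.02 over all genes; 55.2% of all genes were higher in KI. At an unadjusted p under 0.05 there were 2 higher and 0 lower, beside 4.97% and 4% of all genes. The median was 0.42 within slide 1, 0.37 within slide 2 and 0.47 within slide 3. Without KI 3, KI 4 and WT 1 it was 0.12, and -0.09 without KI 6 as well. The list mean read 0.65, 0.47, -0.26, -0.96 and -0.70 in KI 3, 4, 6, 8 and 9. It read 0.17, 0.02, -1.14, -1.14 and -1.25 in WT 1, 2, 5, 7 and 10. Slide 1 was high in both genotypes, and the KI mice lay above the WT mice of their own slide on every slide. How much hindbrain tissue came with each cerebellum was not tested.

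With slide as a block 2 members were called higher, Dbh and Nefm, beside 0.982% of all genes. Dbh, the enzyme that makes noradrenaline from dopamine, read 0.27 in KI 3, 1.91 in KI 4, 0.54 in KI 6, -0.05 in KI 8 and 1.13 in KI 9. It read 0.85 in WT 1, -0.33 in WT 2, -0.96 in WT 5, -0.90 in WT 7 and -1.17 in WT 10. WT 1 was as high as the KI mice and the other WT mice were below all of them. The difference was 1.26 ± 0.33 (2.40-fold, limma adjusted p = 0.576), 1.38 without the 3 libraries, and 1.26 ± 0.28 with slide as a block (adjusted p = 0.0333). With probe GC taken out it was 1.15 with the block (adjusted p = 0.103). Leaving out 1 mouse at a time, the blocked adjusted p of Dbh ran from 0.0043 to 0.14. Th, tyrosine hydroxylase, which starts catecholamine synthesis, differed by 1.08 ± 0.51 (adjusted p = 0.591, and 0.0831 with the block) and by 0.71, 1.19 and 1.61 within slides 1, 2 and 3. Hoxb3, a segment-identity gene of the caudal hindbrain, was high in KI 3 (2.12) and WT 2 (1.11) only and between -2.14 and -1.13 in the other 8 mice.

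A further 6 of the 196 genes called higher in KI with slide as a block, none of them called without it, are described one by one; they were picked by hand after their values were seen and stand for no list. Gal, the neuropeptide galanin, read 1.11 in KI 3, 0.70 in KI 4, 0.05 in KI 6, -0.24 in KI 8 and 0.20 in KI 9. It read 0.35 in WT 1, 0.12 in WT 2, -0.66 in WT 5, -0.68 in WT 7 and -0.68 in WT 10. Within each slide the KI mice were above the WT mice, by 0.67, 0.58 and 0.88, while across slides the groups overlapped. The blocked difference was 0.67 ± 0.11 (adjusted p = 0.0155), and 0.60 with probe GC taken out (adjusted p = 0.0633). Penk, the precursor of enkephalins, was higher by 0.64 ± 0.13 with the block (adjusted p = 0.0272), with the spot of KI 8 not used, on a probe of 38.3% GC. Calca, the precursor of calcitonin gene-related peptide, was higher by 0.92 ± 0.21 (adjusted p = 0.0388), and by 0.81, 0.85 and 1.28 within slides 1, 2 and 3. Without a block and without the 3 libraries its difference was 0.40. The other probe of Calca gave 0.11 and was not called. Ache, acetylcholinesterase, was higher by 1.05 ± 0.19 (adjusted p = 0.0206), and Slc18a3, the vesicular acetylcholine transporter, by 0.60 ± 0.13 (adjusted p = 0.029). Sncg, gamma-synuclein, was higher by 0.97 ± 0.22 (adjusted p = 0.0338), and by 0.70, 1.24 and 0.98 within slides 1, 2 and 3. Without a block and without KI 3, KI 4, KI 6 and WT 1 its difference was -0.01. That fit leaves WT 2, at 1.36, as the one slide 1 mouse. For these genes, the highest adjusted p on leaving out 1 mouse lay between 0.089 and 0.18.

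**Figure D5:**
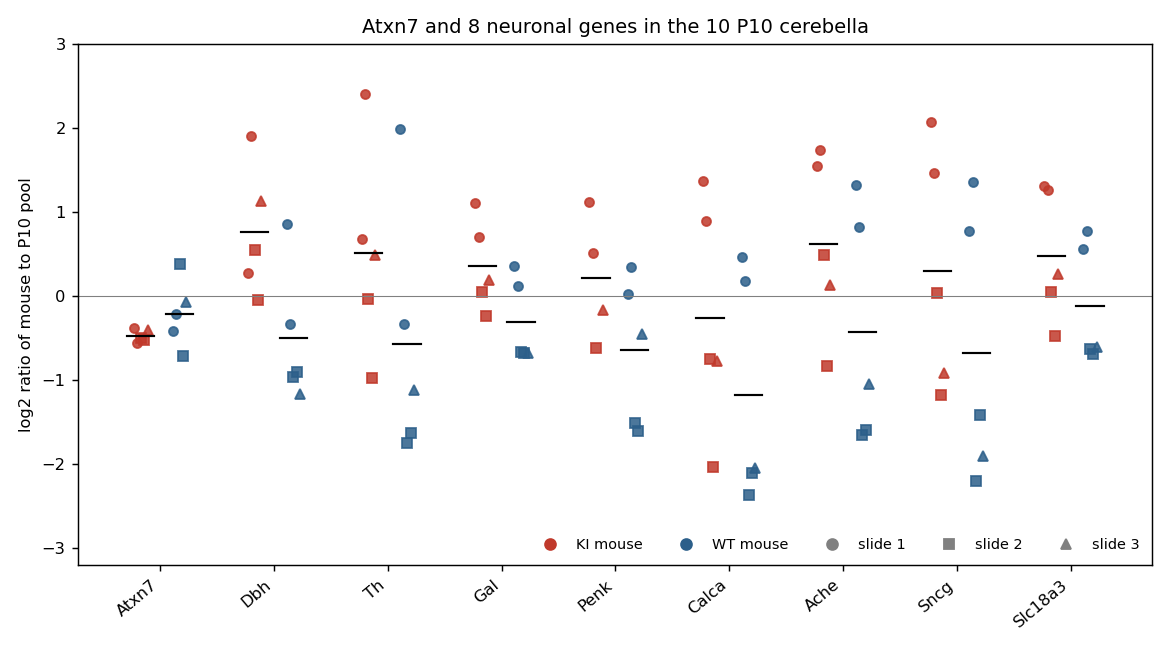
Log2 ratio of mouse to P10 pool for Atxn7 and 8 neuronal genes, chosen after their values were seen. Points are mice, shaped by slide, and black lines are group means; for Gal the KI mice lie above the WT mice of the same slide by 0.58 to 0.88 on average.

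Myelin genes were higher in KI in 19 of 21 measured members, with a median of 0.15. KI 3 carried the highest list mean, 1.07, and the other KI mice lay between -0.68 and 0.11 beside -0.87 to 0.48 in WT. The median was 0.26, 0.13 and 0.18 within slides 1, 2 and 3, and -0.18 without the 3 libraries and without a block. Mbp, the myelin basic protein, differed by 0.04 ± 0.36, and by -0.50 without the 3 libraries. Genes of oligodendrocyte precursors were higher in KI in 4 of 6 measured members, with a median of 0.15, and of -0.05 without the 3 libraries. That median was 0.0098, 0.20 and -0.0032 within slides 1, 2 and 3. Cspg2, the proteoglycan versican, was the lowest member and the only one called with the block, beside 1.02% of all genes called lower. Its difference was -0.60 ± 0.14 (adjusted p = 0.0353, and 0.103 with probe GC taken out). Of its 4 probes, 1 gave the opposite direction, at 0.17.

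No member of the lists of Purkinje cells, granule neurons and their precursors, or the cell cycle was called with or without the block. Of the Purkinje cell list, 20 of 24 members were lower, with a median of -0.24. Beside this count and those of the lists below, 8931 of all 19954 genes tested were lower in KI. The list mean was -1.49, -1.44, -0.15, 0.29 and 0.79 in KI 3, 4, 6, 8 and 9. It was -1.54, -0.03, 0.05, 0.13 and 0.77 in WT 1, 2, 5, 7 and 10. The 3 libraries named above were low and the remaining KI and WT mice overlapped; without them the median was 0.09, and it was -0.62, -0.05 and 0.0024 within slides 1, 2 and 3. Pcp2, a Purkinje cell regulator of G protein signalling, differed by -0.22 ± 0.63, and by 0.49 without the 3 libraries. Calb1 differed by -0.42 ± 0.62, and by 0.14 without them. The SD among the mice compared was 1.93 in KI and 1.56 in WT for Pcp2, and 1.80 and 1.65 for Calb1. This spread is wider than the pooled variance behind the ± values, which therefore understate it for both genes. Pcp2 was saturated in Cy5 on 2 arrays, which bounds its level there.

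Granule neuron genes were lower in 13 of 17 members, with a median of -0.34, of -0.10 without the 3 libraries, and of -0.74, -0.11 and -0.03 within slides 1, 2 and 3. Gabra6 differed by -0.30 ± 0.81, with KI 4 missing as an outlier spot, and by -0.32 without the 3 libraries. Cbln3, a cerebellin subunit of granule neurons, differed by -0.94 ± 0.62, and by -0.48 without them. The ± values of Gabra6 and Cbln3 likewise understate the spread among the mice compared. The SD was 2.17 in KI and 2.40 in WT for Gabra6, and 1.74 and 1.75 for Cbln3. Genes of migrating granule neurons were lower in 13 of 15, with a median of -0.31, of -0.13 without the 3 libraries, and of -0.60, -0.21 and -0.08 within slides. Dcx, the microtubule protein doublecortin, differed by -0.60 ± 0.48, and by -0.13 without the 3 libraries. The list of granule precursors and Sonic hedgehog signalling had a median of -0.13, of 0.0046 without the 3 libraries, and of -0.27, -0.02 and -0.07 within slides. Atoh1, the transcription factor that defines the precursors, differed by -0.03 ± 0.30, and by 0.27 without the 3 libraries. Gli1, a Sonic hedgehog target, differed by 0.02 ± 0.18, and by 0.06 without them. Ptch1, the Sonic hedgehog receptor and smallest p of that list, differed by -0.43 ± 0.25, and by -0.49 without them, while its other probe gave 0.13. For Ptch1 the spread among the mice compared was narrower than the pooled variance, with an SD of 0.19 in KI and 0.17 in WT. Cell cycle genes were lower in 21 of 22, with a median of -0.21. That median was -0.28, -0.24 and -0.05 within slides 1, 2 and 3, and 0.01 without the 3 libraries and without a block. The proliferation marker Mki67 differed by -0.16 ± 0.40, and by 0.16 without them.

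Genes of meninges and fibroblasts were lower in KI in all 12 measured members, with a median of -0.31. Of all 19954 genes tested, 8931 were lower. At an unadjusted p under 0.05 there were 3 members lower, beside 4% of all genes. Ptgds, the prostaglandin D synthase made by leptomeninges, is described outside the fixed rule for named genes. It read -1.84 in KI 3, -2.38 in KI 4 and 0.43 to 0.63 in the other KI mice, against -0.10 to 0.90 in WT. For Ptgds, KI 3 and KI 4 alone were low, and WT 1 was not. Dcn, a defining marker, was low in WT 1 too, at -0.98, beside -1.11 in KI 3 and -1.76 in KI 4. It read 0.21 in KI 8, 0.08 in WT 2 and -0.20 in WT 7, with the other mice not usable. Ogn, the other defining marker, read -1.78 in KI 3, -1.57 in KI 4, -0.29 in WT 1 and -0.49 to 0.52 in the others. The list's median was -0.85 within slide 1, 0.05 within slide 2 and -0.07 within slide 3, and -0.01 without the 3 libraries. Choroid plexus genes were higher in KI in 9 of 11 measured members, beside 55.2% of all genes, with a median of 0.18. That median was 0.92, -0.08 and -0.84 within slides 1, 2 and 3, and -0.16 without the 3 libraries. In this list Ttr, the plexus carrier transthyretin, ran from -3.87 to 1.17 in KI and from -3.74 to -0.40 in the 4 usable WT mice. Otx2, a homeobox gene and one of the 2 members lower in KI, was the one member called with the block. Of all genes, 1.02% were called lower with the block. The difference of Otx2 was -1.03 ± 0.26 (adjusted p = 0.0471). KI 3, at -2.90, was the lowest mouse; the difference was -0.66 with the block without KI 3 and -0.60 without the 3 libraries and no block. The adjusted p with the block was 0.139 without KI 6 and 0.159 with probe GC taken out.

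The glial, vascular and blood lists had medians between -0.10 and 0.11 and no called member. They were Bergmann glia and astrocytes (-0.10, -0.04 without the 3 libraries, turned by median centring), microglia (0.11), endothelium and pericytes (0.03, turned with Cy5 alone and with probe GC taken out) and erythrocytes (0.11, and -0.58 without the 3 libraries). Among them Slc1a3, the glial glutamate transporter GLAST, differed by -0.37 ± 0.30 (-0.04 without the 3 libraries) and Aif1, the microglial protein IBA1, by 0.04 ± 0.21. Within slides 1, 2 and 3 the median of Bergmann glia and astrocytes was -0.21, -0.13 and 0.07. For erythrocytes it was 0.40, -0.10 and -0.04. Inhibitory interneuron genes, also of the cortex, were higher in 8 of 12 members, with a median of 0.16 and of 0.03 without the 3 libraries. Within slides 1, 2 and 3 that median was 0.12, 0.12 and -0.03. Gad1, the enzyme that makes GABA, differed by -0.10 ± 0.22, and by 0.10 without them.

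Stress and metabolic lists lay close to the median of all genes. Heat shock genes were higher in 12 of 16 members with a median of 0.11, and Hspa1a, the inducible HSP70, differed by 0.18 ± 0.21. The unfolded protein list had a median of 0.04, the interferon list -0.00094 (turned with Cy5 alone), immediate early genes -0.07 (turned by median centring), insulin-like growth factor genes -0.01, cholesterol synthesis 0.10 and oxidative phosphorylation 0.04 (turned with Cy5 alone and with Agilent's own ratios). In cholesterol synthesis, Mvd, mevalonate diphosphate decarboxylase, ran from 0.63 to 0.89 in KI and from 0.05 to 0.53 in WT without overlap, a difference of 0.38 ± 0.13 (adjusted p = 0.576, and 0.0950 with the block). Genes of other ataxias were higher in 12 and lower in 14 of 26 members, with a median of -0.01 that turned under median centring. Of these Stub1, the chaperone-linked ubiquitin ligase CHIP, was called with the block, higher by 0.33 ± 0.08 (adjusted p = 0.0396). That adjusted p ran from 0.0057 to 0.16 leaving out 1 mouse at a time, and was 0.17 with probe GC taken out. Atxn1 and Cacna1a differed by -0.07 ± 0.21 and 0.08 ± 0.30.

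At week 11 no probe differed between KI and WT in the unblocked fit (0 of 35254 probes, 1766 at an unadjusted p under 0.05), so no gene set from that age could be followed back to P10. The P10 difference was tested against that at P22 and at week 11, with 0 probes called in each comparison in limma and 1472 and 2102 at an unadjusted p under 0.05. Dbh, for example, differed by 1.26 at P10, -0.08 at P22 and -0.10 at week 11, with adjusted p of 0.99 and 0.80 for the change of the difference. Atxn7 differed by -0.26, -0.56 and -0.16 at the 3 ages. These differences and tests had no slide block. Only slide 5 held P22 mice of both genotypes, KI 17 and WT 26. For the other P22 mice genotype and slide went together, and these differences without a block cannot tell them apart.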

How the data were processed

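The authors' scanner files, per the file headers from Agilent Feature Extraction 9.5.3.1, hold spot signals and backgrounds as intensity values, log10 ratios of Cy5 over Cy3, and flags in a unit recorded here as other. The deposited value table, used only as an alternative, holds log2 ratios of 1905 features that run as pool over mouse (correlation with the scanner ratios -0.9997 to -0.9613); its sign was turned, and its centring is unknown, with column medians of 0.0679 to 1.14.

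Each array has 45018 spots, 1639 of them controls, which were left out. In limma 3.58.1 under R 4.3.3, outlier spots were set to missing, backgrounds corrected by normexp (offset 50), ratios normalised by loess within arrays, and spots of a probe averaged (41174 probes). Detection required that 4 or more of the 30 arrays had Cy5 well above background (35598 probes), and probes were tested with at least 3 usable arrays per P10 group (34832). A model of 6 group means was fitted to all 30 arrays (24 residual and 3.96 prior degrees of freedom), two-sided, with Benjamini-Hochberg adjustment. The number of arrays limits the precision. The labels do not say whether mice shared a litter. Symbols came from the RefSeq table of GRCm38.p6 for 22951 probes, from the files for 11758 and were missing for 6465; positions are the files' mm7. A gene is its brightest probe.

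The 25 lists (382 of 408 entries measured) and all members were chosen with earlier results of these data known, and no set test was run. Named were Atxn7, its neighbours with unadjusted p under 0.05, the 10 genes of smallest p each way (where fewer than 10 passed) with at least 4 usable arrays a group, and of each list the first 2 genes and the smallest p; some genes this rule names are not reported here. The fits were tested on simulated data with independent noise and slide effects. Those data held no trend on probe GC and no libraries that stand apart, so the test does not bear on calls that depend on these. Alternatives changed the arrays, block, normalisation, background, filters and replicates; leaving out libraries that stand apart, probe GC and combinations with the slide block were added after seeing the data.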

Additional observations from a re-analysis of the deposited data

Results flagged for a closer look

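The values in this part are the mice that lay far from the others of their group, by a gap test within groups of 4 or 5 mice, over the genes and lists named above; chance gives about 1 in 20 groups, and 21 of the 266 groups looked at had one. WT 1 was far below the other WT mice for cortical markers: Pcp2 -2.58, Calb1 -3.01, Gabra6 -4.95, Cntn2 -0.83, Gdf10 -3.19 and Unc5b -1.84. KI 6 stood apart in Xist, at -5.53, in the list of Xist and Y-linked genes, at -1.71, and in Mtfmt, at -0.59. KI 3 was far off for Hoxb3 (2.12), Taf6l (0.51), B2m (-0.74) and the SAGA list (0.0246), and WT 2 for Hoxb3 (1.11). Ttr was -0.40 in WT 5, where the other usable WT mice were at -3.51 or lower. WT 10 was apart for Tanc2 (-0.10), Fos (0.41) and the immediate early list (0.36), KI 9 for Gad1 (0.48) and the immediate early list (0.0651), and KI 8 for Hemgn (-0.21).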

How the results depend on the processing

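No paired analysis was possible because each mouse carries a number of its own; slide served as the block. Without a block, 0 probes were called under every alternative run except leaving out WT 1, with a range of 0 to 11 over the mice left out. With slide as a block the count was 605, and 490 with scale normalisation, 1327 with median centring, 147 with Cy5 alone, 946 with no background subtraction, 1217 with array weights and 1645 without KI 3, KI 4 and WT 1. With 1 mouse left out, the blocked count was 1657 (KI 3), 152 (KI 4), 0 (KI 6), 16 (KI 8), 52 (KI 9), 2668 (WT 1), 151 (WT 2), 80 (WT 5), 10 (WT 7) and 55 (WT 10). Among neighbours of Atxn7, the blocked fit called 1 with no background subtraction and 1 without the 3 libraries, and 2 with array weights, without KI 3 or without WT 1. Leaving out 1 mouse, Atxn7 differed by -0.39 to -0.12 without a block and by -0.42 to -0.08 with it, and Psmd6 turned to 0.0355 under median centring with and without the block, and Sncg to -0.0086 without KI 3, KI 4, KI 6 and WT 1.

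Median centring moved the median of all genes from 0.02 to 0.12, and moved list medians, with and without the block, to 0.19 and 0.19 (SAGA), 0.23 (other ataxia genes), 0.22 (Bergmann glia), 0.415 (heat shock), 0.29 (unfolded protein), 0.17 (immediate early), 0.10 (insulin-like growth factor), 0.40 (cholesterol synthesis), and 0.38 and 0.37 (oxidative phosphorylation). The SAGA median was 0.0506 with array weights, 0.0769 and 0.10 without the 3 libraries (no block and block), -0.10, 0.088 and 0.073 within slides 1, 2 and 3, -0.0595 to 0.0871 leaving out 1 mouse, and 0.041 with the block without KI 9 or WT 10. The insulin-like growth factor median was 0.18 and 0.24 without the 3 libraries, 0.16 and 0.13 within slides 2 and 3, -0.0223 to 0.14 leaving out 1 mouse, and 0.12 with the block without WT 2. Other ataxia genes had 0.12 in the deposited table, 0.16 without the 3 libraries and KI 6, and 0.18 within slide 3. Oxidative phosphorylation had -0.0680 with array weights, -0.0659 without the 3 libraries, and -0.0852 within slide 3. Within single slides, the median was -0.85 for meninges (slide 1), -0.84 for choroid plexus (slide 3) and 0.13 for unfolded protein (slide 2). The list of Xist and Y-linked genes had 2 measured members, Xist (-1.60) and Kdm5d (0.73), in opposite directions. Their median was 0.0171, -1.09 and -0.0281 by slide. With detection on all 10 arrays the value was that of Xist alone, -1.60, with KI 6 at -5.53. The causes were not tested. The other 1312 alternative values of the main comparisons kept their direction or moved by less than the spread between mice.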
